A study of Homo sapiens with 7 samples.

Results

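Described here are the genomic sites whose share of the HA CUT&RUN signal was higher than in the control at both times after the tagged fusion PAX3-FOXO1 was targeted for degradation. The members were chosen by their counts. Each column was divided by its sum and multiplied by 1000000, and the 2 columns of a treatment were averaged. A site was a member when its mean raw count over the 6 columns was at least 10 and log2((dTAG mean + 5)/(DMSO mean + 5)) was at least 0.4 at 2 h and at 4 h. Sites on chromosome Y were left out. Of the 5782 sites in the table, 5497 outside chromosome Y passed the count minimum, and 369 of them (6.71%) were members. On chromosome Y 11 of the 13 sites that passed the minimum met both thresholds.

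Rh4 is an established alveolar rhabdomyosarcoma line. The fusion in these cells bears an FKBP degron, and an antibody against HA located it. All libraries described were crosslinked, the DMSO columns being taken as the crosslinked pair: 2 from cells given DMSO, 2 from cells given dTAG47 at 500 nM over 2 h and 2 at that dose over 4 h. The labels do not say whether the cells are 1 clone, or whether libraries came from separate cultures, so p-values measure only the spread between libraries.

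PAX3-FOXO1 couples DNA-binding domains from PAX3 with the FOXO1 transactivation domain and binds enhancers of muscle and neural developmental genes. dTAG47 brings a protein that carries the degron to an E3 ubiquitin ligase, after which the proteasome degrades it. In CUT&RUN a nuclease tethered to the antibody releases DNA under the target, and reads also gather at places with no bound target. Well known places of this kind are satellite DNA around centromeres, which an assembly holds in fewer copies than the genome does, and nuclear copies of mitochondrial DNA. Whether members hold such sequence was not tested, because no hg19 sequence or annotation was used here; for the same reason no bases are printed and sites are given by position in hg19, as the file gives them.

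Libraries differed widely in their reads at all sites, from 110440 to 380057, a 3.44-fold range. The 4 h columns agreed within sampling noise over the 5497 sites (chi-square per degree of freedom 1.01, p = 0.297). The labels number them as replicates, and they may stand for only 1 sample. A measure pooled over all sites cannot decide this, and at the 19 raised members described further on the columns summed to 1530 and 1238 reads. The fits below took them as separate columns, and the calls at 4 h with both summed as 1 library are given too. Between DMSO libraries the chi-square per degree of freedom reached 2.08, and between 2 h libraries 1.94.

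Summed over all members, reads varied less between libraries than the totals did, a difference in part set by the choice of members. The 134 members whose counts were level between the DMSO libraries, described further on, held most of this sum in each library. Their mean counts went down to 10.3, with a median of 47.3. The sum over the other 235 members varied 2.31-fold. The division was made on the DMSO counts, so the difference between the parts is in part set by it. Library A and library B of the DMSO pair summed to 34217 and 40471 reads at members. The 2 h pair summed to 41262 and 29089, and the 4 h pair to 35014 and 35524. The largest of these sums was 1.42 times the smallest. The choice asks for a higher average share after treatment, so this narrow range is in part set by it. As a share of the reads at all sites, the members held 15.1% and 10.6% in DMSO, then 18.1% and 26.3% after 2 h and 23.1% and 22.6% after 4 h. The treated shares lay above both DMSO shares, as the choice of members requires of their averages. The library with the most reads, DMSO B, had the lowest share, and the library with the fewest, 2 h B, had the highest. The other 5128 sites that passed the minimum summed to 189388 and 336698 reads in DMSO, then 185138 and 79946 after 2 h and 114803 and 119708 after 4 h, a 4.21-fold range.

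**Figure D1:**
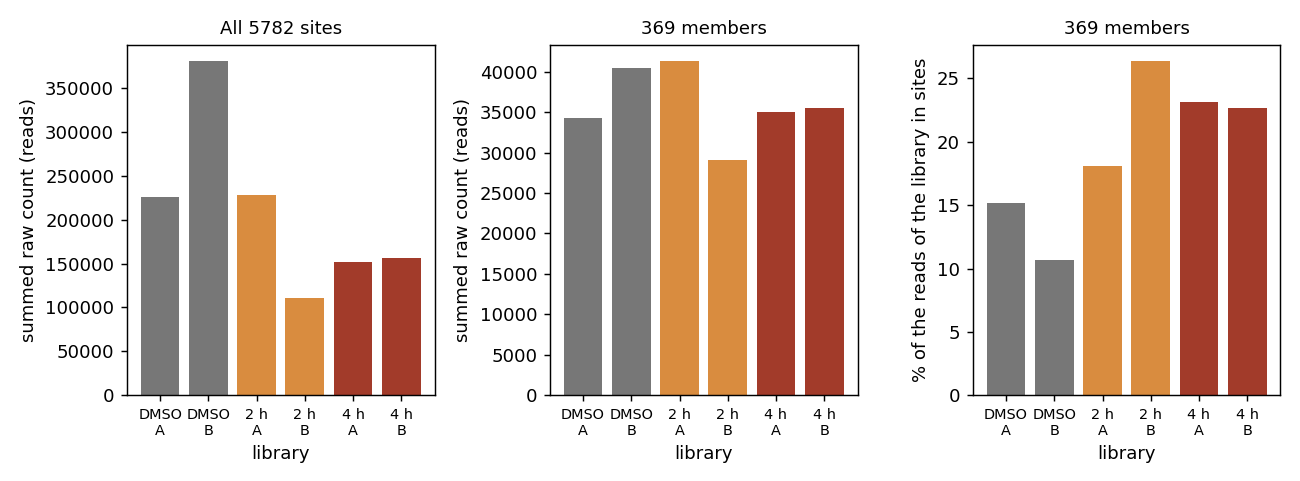
Reads per library at all 5782 sites (left, summed raw count), at the 369 members (middle, same unit) and the members' share of the reads at sites (right, percent); each bar is 1 library, grey for DMSO, orange for 2 h and red for 4 h. The members' sums lie between 29089 and 41262 while the totals lie between 110440 and 380057, so the share is lowest in DMSO B and highest in 2 h B.

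The values that chose the members were modest for most of them. The median of the chosen measure was 0.69 at 2 h and 0.71 at 4 h on the log2 scale, against −0.11 and −0.10 over all 5497 sites, and the highest values were 2.10 and 2.46. At 31 members it was at least 1 at both times, and at 186 the lower of the 2 values was under 0.6. A site with the same raw count in every library would by arithmetic have a value of 0.93 at 2 h and 0.88 at 4 h, because scaling each column to its sum raises the treated averages; 2 h library A had slightly more reads than DMSO A, and the 2 h value comes from the small total of 2 h B and the large total of DMSO B. At 75 members both values lay within 0.2 of this level. The value was more than 0.2 above it at 38 members at 2 h and 49 at 4 h, and more than 0.2 below it at 208 and 173. Just inside the threshold lay chr8:29630887-29631287, with a lower value of 0.401 and 26 and 55 reads in DMSO, then 48 and 15 after 2 h and 30 and 27 after 4 h. The other site just inside, chr6:85472875-85473275, also had 0.401. Just outside lay chr7:130005188-130005588, with 0.3995, and chr11:86235450-86235850, with 0.3995. At the first of these the counts were 290 and 519 in DMSO, then 451 and 168 after 2 h and 273 and 317 after 4 h, so the threshold separates sites with like values.

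**Figure D2:**
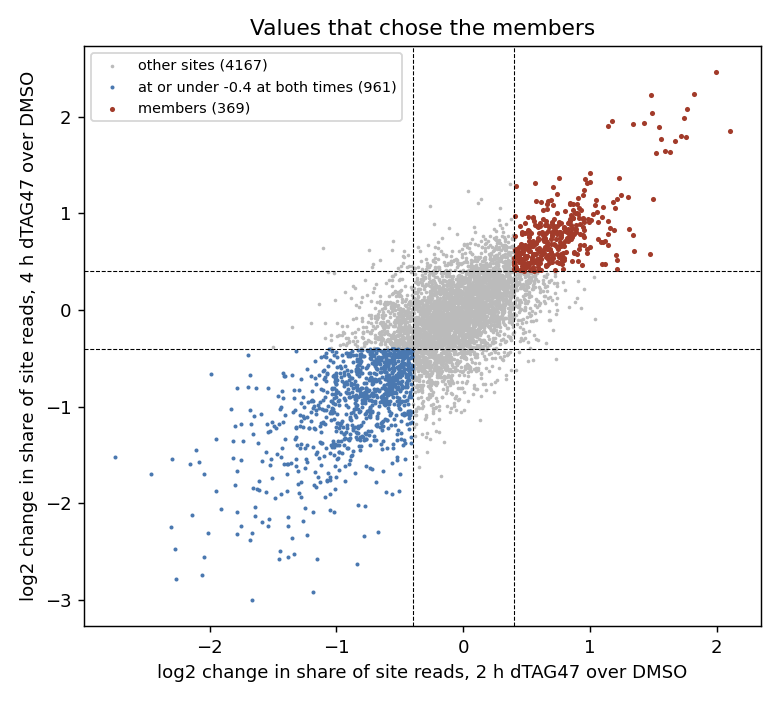
Each point is 1 of the 5497 sites, placed by the log2 change in its share of site reads at 2 h (x axis) and at 4 h (y axis) against DMSO; dashed lines mark 0.4 and −0.4. The 369 members (red) fill the upper right corner, with a detached group above 1 at both times, and 961 sites (blue) lie at or under −0.4 at both.

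In raw counts most members neither gained nor lost many reads. Their median raw log2 change, computed with 0.5 added to each mean count, was −0.16 at 2 h and −0.20 at 4 h, against −0.92 and −1.07 over all 5497 sites. At 2 h 250 members lay within 0.3 of 0, 86 were at −0.3 or lower, and 33 were higher, 12 of them by at least 0.75. At 4 h the numbers were 195, 140 and 34, with 19 members at 0.75 or above. The lowest member was at −0.51 at 2 h and −0.64 at 4 h. Both 2 h libraries exceeded both DMSO libraries in raw counts at 21 members, where the background over the 5497 sites was 22 (0.4%). Both 4 h columns did so at 42 members (background 43, 0.782%). All 4 treated columns did so at 13 members, which were also the only sites of the 5497 with that pattern (0.236%). The choice of members used these contrasts, so nothing is read from these counts.

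Fitted across all 5575 tested sites, every member had a relative log2 change above 0 at both times, as chosen. The relative fit (edgeR's quasi-likelihood test, TMM scaling, Benjamini-Hochberg adjusted p under 0.05) called 128 of the 369 members higher at 2 h, beside a background of 2.49% of all sites. At 4 h it called 196, beside 4.72%, and 139 with the 4 h columns summed as 1 library, where 180 sites in all were called higher. It called 105 members higher at both times, of 107 such sites among all 5575 tested, and 150 members at neither. No member was among the sites called lower, which made up 4.07% of all sites at 2 h and 6.73% at 4 h. DESeq2 called 15 members at 2 h and 21 at 4 h, which were all the sites it called higher. Left without DMSO library B, the relative fit called 34 members of 37 sites called higher at 2 h and 71 of 88 at 4 h. Without 2 h library B it called 57 of 63 at 2 h. Without 4 h column A it called 84 of 101 at 4 h, and without column B 72 of 87. The choice of members used these contrasts, so the counts and the adjusted p-values given for single members describe them and support nothing. Without scaling, edgeR called 0 members in either direction. At an unadjusted p under 0.05 in that edgeR fit, 0 members were higher at 2 h and 2 at 4 h, and 0 were lower at either time. Over all 5575 tested sites the same bound gave 0 higher and 1042 lower at 2 h, and 2 higher and 1567 lower at 4 h. The unscaled fit called 1.04% of all sites lower at 2 h and 6.19% at 4 h, and 0% higher at each time.

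The choice of members did not set the treatment times against each other, and that comparison found no called site. Relative to the typical site, 0 of the 369 members differed between 4 h and 2 h in edgeR (background 0%), with a smallest adjusted p of 0.674. At an unadjusted p under 0.05 there were 15 members higher at 4 h and 0 lower, beside 149 and 172 over all tested sites. DESeq2 also called 0, with 0 members at an unadjusted p under 0.05. The unscaled fit called 0 sites. From 2 h to 4 h the members had a median relative log2 change of 0.07, with 246 of 369 above 0, against −0.00 over all sites. It was −0.12 without 2 h library A, with 138 members above 0, and 0.24 without 2 h library B, with 282 above 0. The direction between the times therefore rests on which 2 h library is used.

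Many members stood close together. Within 10 kb of another member lay 81 of the 369 (22.0%), in 19 runs on 11 chromosomes. By the same measure 4.58% of the 961 sites that lost share at both times lay within 10 kb of another such site. For all 5497 sites, a denser set, the figure was 13.3%. Runs of 5 or more numbered 6 and held 49 of the 50 sites within their spans. No site that lost share at both times lay within any of the 19 runs. The share in runs changed with the libraries used for the choice: it was 8.91% without DMSO library B and 9.83% without 2 h library B, and between 18.7% and 23.6% without any other single library.

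The run with the most members spanned chr2:133012561-133039297 on the long arm of chromosome 2, with 12 members and no other site. Together they had 2168 and 1894 reads in DMSO, then 2265 and 1878 after 2 h and 2130 and 2152 after 4 h. The sums of the treated and control libraries overlapped. Its strongest site, chr2:133034344-133034744, had 472 and 400 reads in DMSO, then 475 and 390 after 2 h and 479 and 431 after 4 h. The neighbouring chr2:133033246-133033646 had 276 and 198 in DMSO, then 287 and 225 after 2 h and 259 and 261 after 4 h. At both sites the A library exceeded the B library with DMSO and at 2 h, although DMSO B held 1.68 times the reads of DMSO A over all sites.

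The widest run spanned chr2:92269319-92320303 and held 11 of the 12 sites there. As general background, the centromeres of chromosomes 2, 10, 11 and 16 lie close to this run and to the following ones. The members of this run had 1671 and 1478 reads in DMSO, then 1593 and 1490 after 2 h and 1549 and 1593 after 4 h. Its strongest site was chr2:92269319-92269719, with 825 and 735 in DMSO, then 754 and 748 after 2 h and 721 and 784 after 4 h. At chr2:92305558-92305958 there were 56 and 39 in DMSO, then 58 and 69 after 2 h and 49 and 75 after 4 h. Its lower value of the chosen measure was the highest of the run, yet its 4 h column A lay between the DMSO libraries.

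On chromosome 10 a run of 9 members lay at chr10:42385022-42400680. Its sums were 1133 and 1043 in DMSO, then 1072 and 946 after 2 h and 1044 and 1049 after 4 h. On chromosome 11 a run of 6 lay at chr11:51569914-51591135, with sums of 797 and 721, 838 and 642, and 823 and 853 in the same order. On chromosome 16 a run of 6 lay at chr16:33950876-33974363, with 629 and 582, 605 and 510, and 568 and 597. None of these 3 spans held a site that was not a member. In the chromosome 16 run 1 site differed from its neighbours in raw counts: chr16:33950876-33951276 had 67 and 64 reads in DMSO, then 88 and 79 after 2 h and 98 and 89 after 4 h, with all treated columns above both controls. The run also held chr16:33963025-33963425, with 201 and 200 in DMSO, then 197 and 160 after 2 h and 183 and 193 after 4 h.

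**Figure D3:**
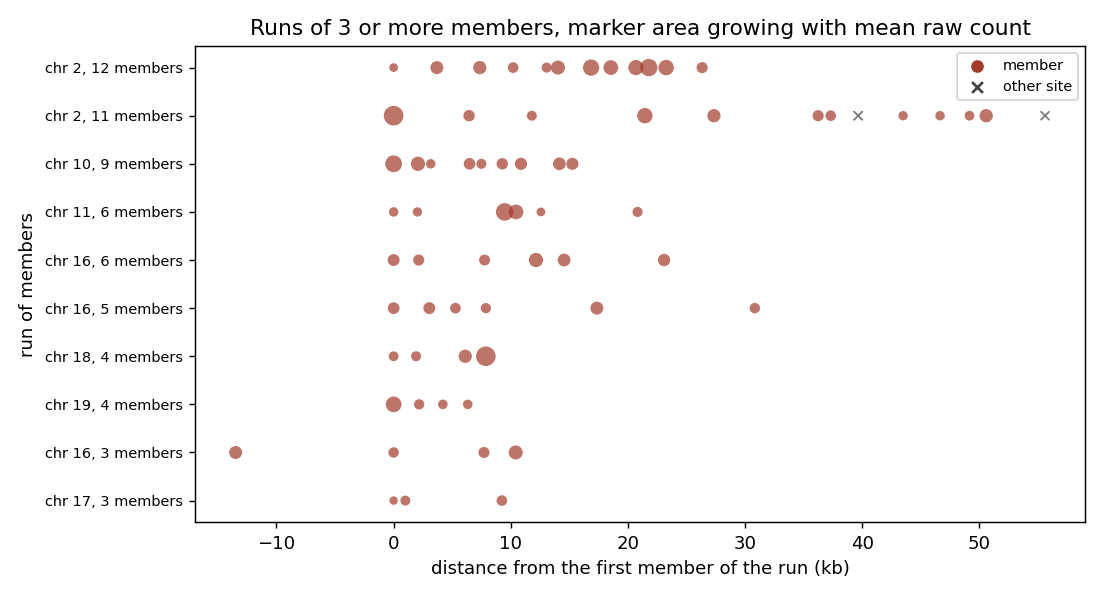
Members (red circles) and other sites that passed the count minimum (black crosses) around the 10 runs of 3 or more members, placed by distance in kb from the first member of the run; larger markers have a higher mean raw count. The runs hold members almost without other sites between them, the exception being 1 site within the run of 11 on chromosome 2. The member left of 0 beside the run of 3 on chromosome 16 belongs to the run of 5 there.

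Closeness to another site went with membership over the whole table. Of the 138 sites whose nearest neighbour of any kind lay under 2.5 kb away, 38.4% were members. The share was 9.92% of 605 sites at 2.5 to 10 kb, 5.17% of 2438 at 10 to 100 kb and 5.61% of 2316 at 100 kb or more. Of the sites that lost share at both times no such rise was seen: they made up 13.0%, 15.7%, 16.9% and 18.8% of the same classes. Distance to the widest interval without sites on each chromosome was used in place of annotated gaps. This interval lies at the centromere on some chromosomes only, so the measure misses the runs on chromosomes 2, 10 and 11. Within 1 Mb of it 27.3% of 128 sites were members, against 6.22% of 5369 farther away. These are descriptions of positions, with no test.

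By chromosome, members made up between 4.14% of the sites, on X, and 12.8%, on 16. On chromosome 16, 14 of the 19 members lay in runs, on chromosome 10, 15 of 25, and on chromosome 2, 27 of 47. Counting only members outside runs, the share ranged from 3.29% on chromosome 12 to 10.1% on chromosome 17, with 3.36% on chromosome 16. Chromosome 17 thus stood at the top without its runs and chromosome 16 near the bottom.

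Members were frequent among the sites with the most reads. Of the 20 sites with a mean count of 300 or more, 17 were members (85.0%), and of the 201 sites at 100 to under 300, 32.3% were. The share was 5.92% at 25 to under 100 and 4.94% at 10 to under 25. The mean count takes in the treated columns, whose counts also chose the members, so these shares are a description. The strongest member was chr1:121484990-121485390, with 4842 and 4496 reads in DMSO, then 4740 and 4330 after 2 h and 4720 and 4715 after 4 h. It lies at the edge of the widest site-free interval of chromosome 1. The next were chr7:61968821-61969221, with 2639 and 2368, 2671 and 2297, and 2413 and 2540, and chr6:58778181-58778581, with 1637 and 1394, 1580 and 1322, and 1508 and 1537. The 5 strongest members included chr9:66971000-66971400 and the first site of the chromosome 2 run described above. At the chromosome 9 site there were 1048 and 1014 reads in DMSO, then 1006 and 1006 after 2 h and 1029 and 988 after 4 h. The DMSO and treated counts overlapped at all 5. The relative fit called none of the 5 (edgeR adjusted p between 0.109 and 0.375), although the relative log2 change was between 0.93 and 1.03 at each time.

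The choice used the average of the DMSO libraries and not their ratio, although both come from the same counts. The median DMSO B to A ratio of raw counts, with 0.5 added to each count, was 1.49 over the members and 1.73 over the other 5128 sites. The totals of the libraries stood in a ratio of 1.68. The members' median depended on the libraries used to choose them: it was 2.04 for sites chosen without DMSO library B, 1.18 without DMSO library A and 1.72 without 2 h library B. Over the 81 members in runs the median was 0.914, and over the 288 outside runs 1.70. DMSO B had fewer reads than DMSO A at 66.7% of the members in runs, at 13.2% of those outside and at 2.55% of the sites that were not members. At a mean count of 100 or more, the median was 1.10 for 82 members and 1.85 for 139 others. At 10 to under 25 reads it was 1.48 and 1.56, where counting error at single sites is largest.

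The pair of 2 h libraries, whose average and not ratio entered the choice, showed a like division. Library B held 0.484 times the reads of library A over all sites. The median B to A ratio was 0.852 over the members in runs, 0.506 over the members outside runs and 0.448 over the sites that were not members. Across the 369 members the log2 ratio of the DMSO pair and that of the 2 h pair had a Pearson r of −0.613, against −0.101 across the other 5128 sites. Within parts of the members r was weaker: −0.272 in runs, −0.531 outside runs, and −0.172 and −0.247 in the 134 and 235 members divided by their DMSO ratio below. The value over all members therefore partly reflects differences between such parts. The sites share the same libraries, and the counts of both pairs entered the choice, so r is a description. Counts in runs thus differed little between libraries that differed in total, in DMSO and at 2 h. The counts of both pairs entered the choice, so the 2 h ratio is not an independent showing of the division. Chosen without 2 h library B, 9.83% of the members lay in runs, against 22.0%.

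**Figure D4:**
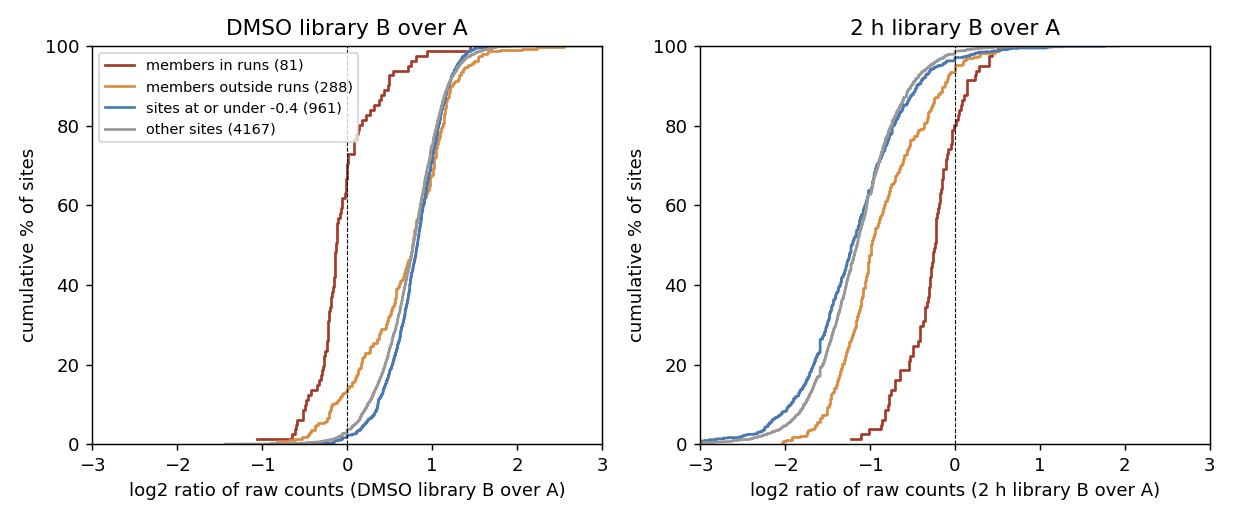
Cumulative percent of sites by the log2 ratio of raw counts between libraries of 1 treatment, for DMSO (left) and 2 h (right); lines show members in runs (dark red), members outside runs (orange), sites at or under −0.4 at both times (blue) and all other sites (grey). The curve of the members in runs lies near 0 in both panels, with median ratios of 0.914 and 0.852, apart from the other 3.

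A bound on the DMSO ratio, chosen after the values were seen, divides the members further. At 134 members the ratio was under 1.2, called level here, and 67 of them lay in runs. Their sums were 24466 and 22151 in DMSO, then 24288 and 21143 after 2 h and 23043 and 23379 after 4 h, a range of 1.16-fold over the 6 libraries. The other 235 members, 14 of them in runs, had sums of 9751 and 18320 in DMSO, then 16974 and 7946 after 2 h and 11971 and 12145 after 4 h, a range of 2.31-fold. The B to A ratios of these sums were 1.88 in DMSO and 0.468 at 2 h, against 1.78 and 0.432 for the sites that were not members. After 4 h the raw log2 change had a median of −0.33 over these 235 members, against −1.10 over the sites that were not members. Level sites that were not members numbered 501, with a median mean count of 16.5. Of the sites with a mean count of at least 100, all 43 that were level were members, against 21.9% of the 178 that were not. At a mean count of at least 25 the shares were 62.0% of 150 and 5.37% of 2756. Both the choice of members and this division read the DMSO counts, so these shares are a description.

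At a small group of members the raw counts were higher after treatment, although the unscaled fit called none of them. The 19 members with a raw log2 change of at least 0.75 at 4 h, a bound chosen after the values were seen, summed to 528 and 817 reads in DMSO, then 1532 and 770 after 2 h and 1530 and 1238 after 4 h. Their median raw log2 change was 0.87 at 2 h and 0.97 at 4 h, values largely set by this bound and by the choice of members. The 2 h library B lay below DMSO B in this sum, while the other treated libraries lay above both controls. The strongest of the 19 had a mean count of 273, against a median of 39.5, and weighs most in the sums and in their ratios. No other member lay within 10 kb of 18 of the 19, as of 288 of all 369 members. Their nearest site of any kind was a median of 156 kb away, against 72.8 kb for all members outside runs and 70.1 kb for all 5497 sites. They lay on 13 chromosomes. Their pooled 2 h B to A ratio was 0.503, near the 0.484 of the totals, and their DMSO B to A ratio was 1.55, near 1.68. At 4 h the relation was the other way round: column B was below column A in their sum, while it was slightly above in the totals and in the sum of the members in runs, 11640 and 11776. Whether any of the 19 lies in a nuclear copy of mitochondrial DNA was not tested, so the places their reads came from are uncertain.

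The most raised of them was chr13:110076342-110076742, with 9 and 11 reads in DMSO, then 28 and 20 after 2 h and 37 and 28 after 4 h. All treated columns exceeded both controls, and the relative log2 change after 4 h was 2.78 (SE 0.338), a value among those that chose the site. At chr2:49456688-49457088 there were 8 and 18 in DMSO, then 37 and 25 after 2 h and 31 and 19 after 4 h. Here the 4 h column B exceeded DMSO B by a single read. At chr18:45379553-45379953 there were 15 and 34 in DMSO, then 53 and 38 after 2 h and 59 and 60 after 4 h. At chr10:101817097-101817497 there were 18 and 27 in DMSO, then 54 and 33 after 2 h and 62 and 41 after 4 h. The treated and control counts did not overlap at these 4 sites.

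Further sites of the group lay on other chromosomes. At chr3:96336818-96337218 there were 11 and 18 reads in DMSO, then 38 and 20 after 2 h and 28 and 27 after 4 h. At chr5:79947928-79948328 there were 30 and 39 in DMSO, then 85 and 47 after 2 h and 74 and 56 after 4 h. At chrX:125606513-125606913 there were 32 and 36 in DMSO, then 79 and 41 after 2 h and 73 and 54 after 4 h. At these 3 sites all treated columns again lay above both controls. The next 2 overlapped in the 2 h library B: chr14:32953653-32954053 had 39 and 67 in DMSO, then 133 and 67 after 2 h and 112 and 106 after 4 h, and chr11:10529312-10529712 had 20 and 29 in DMSO, then 75 and 24 after 2 h and 48 and 41 after 4 h.

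The weakest 2 of the 10 highest members had under 20 reads in every library. At chr6:62284037-62284437 there were 9 and 7 in DMSO, then 15 and 15 after 2 h and 16 and 15 after 4 h. At chr17:22252017-22252417 there were 7 and 7 in DMSO, then 18 and 10 after 2 h and 14 and 13 after 4 h, and this was the single raised site within a run. In the relative fit the 10 highest members had log2 changes between 1.84 and 2.19 at 2 h and between 1.96 and 2.78 at 4 h, values from the contrasts that chose them. In the unscaled fit none was called (edgeR adjusted p between 0.121 and 0.356 at 4 h and between 0.302 and 0.404 at 2 h).

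**Figure D5:**
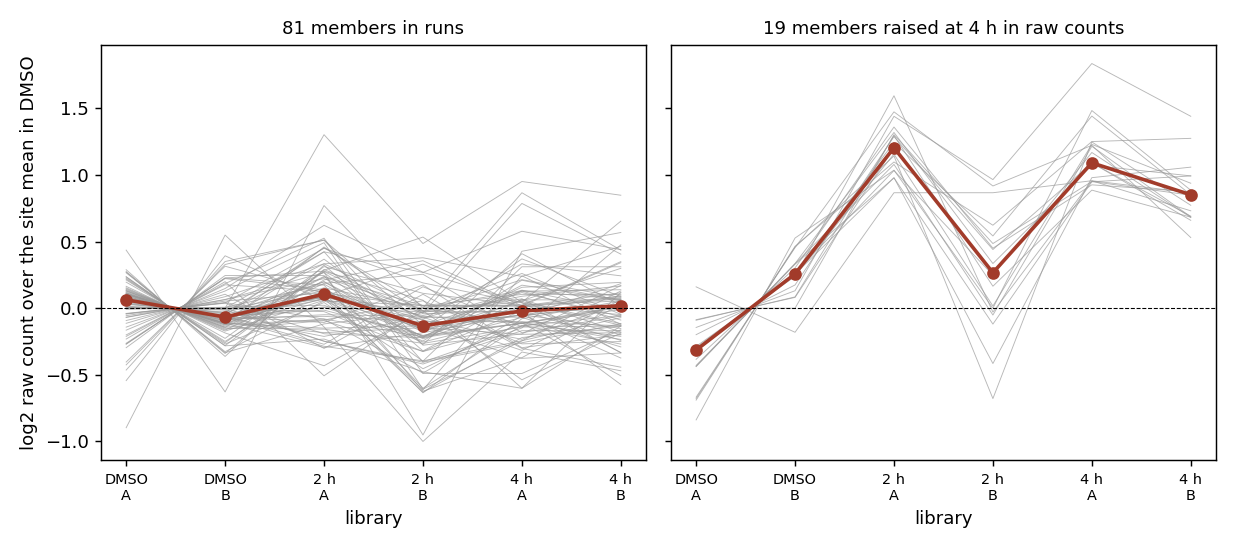
Raw count in each of the 6 libraries, as log2 over the site's mean in DMSO with 0.5 added, for the 81 members in runs (left) and the 19 members raised at 4 h (right); thin lines are sites and the thick line is their median. The median in runs stays between −0.13 and 0.11, while that of the raised members is 1.09 and 0.85 in the 4 h columns, higher still in 2 h library A and 0.27 in 2 h library B.

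Of the members whose raw counts in all 4 treated columns exceeded both controls, 3 lay in runs, and 1 of these was chr18:18510947-18511347, with 25 and 24 reads in DMSO, then 31 and 32 after 2 h and 29 and 34 after 4 h. Its excess was smaller than at the isolated sites. At chr17:19506190-19506590, which had no other member within 10 kb, there were 15 and 17 in DMSO, then 40 and 18 after 2 h and 30 and 26 after 4 h. Between 4 h and 2 h the 19 raised members had a median relative log2 change of 0.37, with 18 of 19 above 0 and 0 called; it was 0.16 without 2 h library A and 0.10 without 4 h column A. Since the group was chosen on its 4 h counts, this direction is not independent of the choice.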

How the data were processed

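HA CUT&RUN was measured in crosslinked Rh4 libraries, 2 per treatment; a further DMSO library, not crosslinked, was left aside. Each deposited value is a raw count at a site. The submitters' processing notes name deepTools, DiffBind, DESeq2, Genrich 0.6.1, Trimmomatic 0.32 and Bowtie2, with the build hg19. How sites were selected and duplicates treated is not given in the sources used here. Column names give treatment and letter, and no label ties letters to replicate numbers; the DMSO pair was taken as crosslinked because only that group has 2 samples. The base from which positions are counted is not given. 0 other columns of values were present.

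Members and lists were chosen with earlier results of these data known. Counts were tested in 1 edgeR 4.0.16 fit of all 6 columns (R 4.3.3; filterByExpr, TMM, quasi-likelihood test, 3 residual degrees of freedom), checked on simulated data. DESeq2 1.42.0, other scalings, no filter, a replicate block, left-out libraries and summed 4 h columns were alternatives. Runs are members within 10 kb of the next. Named sites were the 10 members with the highest lower value, the 5 with the highest mean count, up to 10 with all treated counts above both controls, the 5 largest runs, and 2 sites each side of the threshold. Sequence, motif and gene annotation steps that had been planned were not run for want of an hg19 genome. Intervals cover counting error only.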

Additional observations from a re-analysis of the deposited data

How the results depend on the processing

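The number of members (369) was 806 with a threshold of 0.2, 183 with 0.6, 578 with TMM-scaled totals, and 17 with unscaled counts and 5 reads added; leaving out 1 library gave 346 to 466, of which 258 to 324 were among the 369. Sites called at 2 h (366) were 58 unscaled, 28 with DESeq2 and 173 with the replicate block, and 95 to 429 leaving out 1 library. Sites called at 4 h (638) were 345 unscaled, 51 with DESeq2, 433 with the replicate block, and 258 to 799. With the block, members called were 53 at 2 h and 119 at 4 h. Whether the letters pair libraries is not given, and the correlations between treatments (−0.17, 0.00511 and −0.0117) do not settle it. Totals without TMM gave 107 higher and 365 lower sites at 2 h, against 139 and 227, and 180 and 564 at 4 h, against 263 and 375. Summing the 4 h columns left 139 members called at 4 h. Calls of 4 h against 2 h were 0 in all 12 alternatives, which is no sign of stability. A single library left in a group was assumed to vary like the others.

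Among the named members, the unscaled fit turned 2 called changes at 2 h, to −0.11 at chr10:42395892-42396292 and −0.0145 at chr16:33973963-33974363, by its construction. At 4 h it turned 10: chr2:133029418-133029818 (−0.0461), chr2:133038897-133039297 (−0.17), chr2:92281117-92281517 (−0.16), chr2:92296661-92297061 (−0.19), chr10:42391504-42391904 (−0.13), chr10:42394295-42394695 (−0.0110), chr10:42395892-42396292 (−0.18), chr16:33958636-33959036 (−0.18), chr16:33963025-33963425 (−0.0928) and chr16:33965428-33965828 (−0.0124). Depth outside the sites is unknown, and a count under 20 limits what a single site can show.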
